A study of Mus musculus with 12 samples.

Results

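Ackr1, Ackr2, Ackr3 and Ackr4 encode the atypical chemokine receptors, and they were taken by symbol from the feature list, where they were 4 of 32285 genes. An atypical chemokine receptor binds chemokines without starting the usual G protein signal. It carries its ligand into or across the cell, and so shapes how much chemokine reaches the signalling receptors of leukocytes. In lymph nodes, venular endothelium, lymphatic endothelium and fibroblastic stroma are the known sites of these receptors.

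The data were 12 single-cell RNA libraries (10x 3' counts, V2 chemistry) from lymph nodes of C57BL/6 mice aged 7 to 10 weeks. Mice were ATG12 fl/fl x CDH5 CreER positive (called Cre-positive) or CDH5 CreER negative on the same ATG12 fl/fl background (Cre-negative), and both genotypes received tamoxifen 5 times. The skin of the abdomen was painted with 50 ul of 4% oxazolone, a contact sensitizer, and nodes were taken on day 3 or day 7. Vehicle mice received acetone and olive oil without it. The Cdh5 promoter is active in blood and lymphatic endothelium alike, so the Cre label does not separate vessel types, and how many mice went into a library was not given. Magnetic beads against CD45 split each suspension before sorting into an endothelial fraction (CD31 libraries) and an immune fraction (CD45 libraries). Each combination of treatment, label and fraction was 1 library, so no group had a replicate.

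CD31 libraries held 45438350 to 76187731 counted molecules (UMIs) and 5997 to 10553 cells after filtering. CD45 libraries held 36724887 to 70160214 UMIs and 5698 to 8111 cells. The fractions were not pure: B cell-like cells were 12.7% of the cells in the CD31 libraries, and reticular-like fibroblasts were 11.4% of those in the CD45 libraries. The vehicle Cre-positive libraries stood apart from the rest. In their blood endothelial-like cells Xist, the X-inactivation RNA, was at 0.474 CPM (UMIs of a gene scaled to a fixed total of UMIs for each class and library), against 208 to 400 CPM in the other 5 CD31 libraries. Y-linked genes summed to 90.2 to 290 CPM in all 6. Libraries shared at most 0.380% of their cell barcodes. Atg12 was counted at 52.6, 46.2 and 51.6 CPM in blood endothelial-like cells of the Cre-negative vehicle, day 3 and day 7 libraries, and at 74.0, 60.3 and 64.3 CPM in the Cre-positive ones. These 3' counts do not check the deletion, because the position of the deleted exon was not given.

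All 4 receptor genes are protein coding. By GENCODE M21 (mouse build GRCm38), Ackr1 (ENSMUSG00000037872) lies on chromosome 1 from 173331886 to 173333750 on the minus strand. Ackr3 (ENSMUSG00000044337) lies on the same chromosome from 90203980 to 90216751 on the plus strand. Ackr2 (ENSMUSG00000044534) and Ackr4 (ENSMUSG00000079355) lie on chromosome 9, at 121898355 to 121911074 on the plus strand and at 104084157 to 104126933 on the minus strand.

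In the CD31 libraries the class with the largest share of Ackr1 UMIs was not that of Ackr2, Ackr3 and Ackr4, which had the same one. In the CD45 libraries the same class held the largest share for all 4. Cells were sorted into classes by clustering in which the receptors themselves had no part, and classes were named from marker genes (written "-like"). In the CD31 libraries, 73.1% of 8333 Ackr1 UMIs in cells came from the cluster called HEV-like. It held 5.21% of the cells and 9.59% of all genes' UMIs. High endothelial venules (HEVs) are the vessels through which lymphocytes enter a node. The cluster as a whole was led by more HEV than venous markers, but 4 of its 9 sub-clusters had more venous than HEV markers among their 10 leading genes. Those 4 held 42.5% of the HEV-like cells and 50.7% of their Ackr1 UMIs. Ceiling lymphatic-like cells line the outer wall of the subcapsular sinus. They gave 49.1% of 2810 Ackr2 UMIs, 51.6% of 8629 Ackr3 UMIs and 83.7% of 22627 Ackr4 UMIs. They were 5.59% of the cells and held 6.59% of all genes' UMIs. In the CD45 libraries an adventitial-like fibroblast class led by Pi16 held 1.48% of the cells and 2.01% of all genes' UMIs. It gave 55.2% of 424 Ackr1 UMIs, 75.9% of 361 Ackr2 UMIs, 75.3% of 8017 Ackr3 UMIs and 27.8% of 417 Ackr4 UMIs. Its Ackr4 level was 3.58 to 45.5 CPM by library, beside 0 to 2.61 CPM in free RNA.

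**Figure D1:**
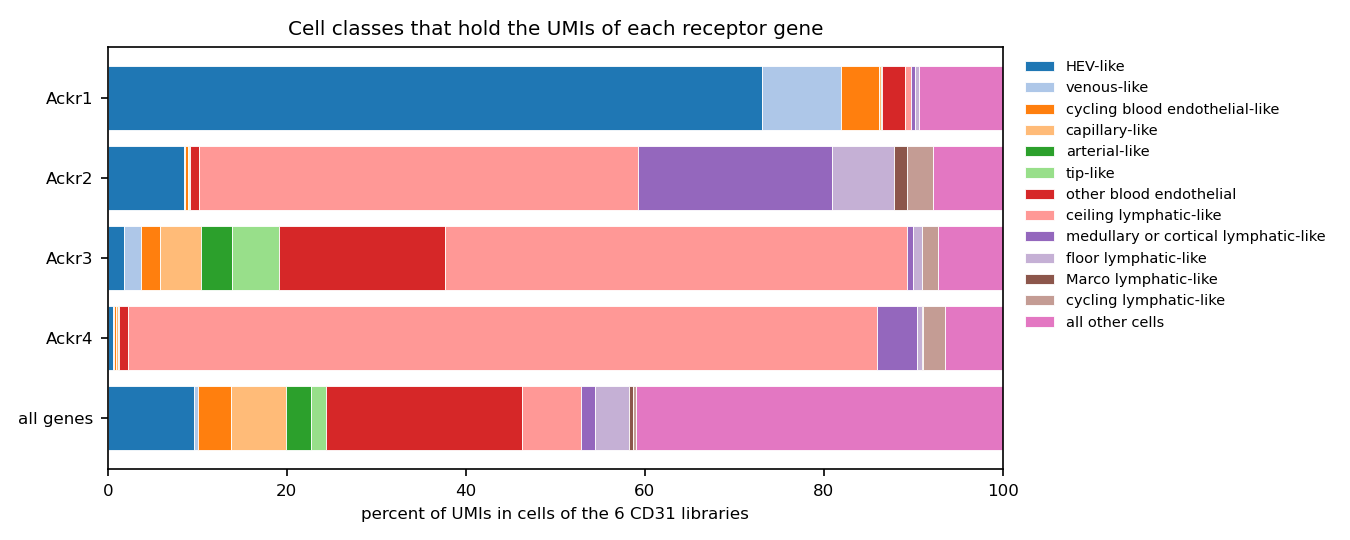
Percent of each receptor's UMIs in cells of the 6 CD31 libraries that came from each cell class, with the same split of all genes' UMIs as the last bar. HEV-like cells hold 73.1% of the Ackr1 UMIs and ceiling lymphatic-like cells hold 83.7% of the Ackr4 UMIs, while Ackr3 is spread over ceiling lymphatic-like and several blood endothelial classes.

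Ackr1 encodes the Duffy antigen receptor, which carries inflammatory CC and CXC chemokines across venular endothelium. Levels in CPM are listed for vehicle Cre-negative, vehicle Cre-positive, day 3 Cre-negative, day 3 Cre-positive, day 7 Cre-negative and day 7 Cre-positive, in that order, wherever 6 stand together. Venous-like cells (18 to 64 a library) had Ackr1 at 526, 491, 647, 549, 552 and 371 CPM. HEV-like cells (268 to 656 a library) had it at 188, 213, 312, 258, 206 and 224 CPM. On the log2(CPM + 1) scale the means were 9.01 ± 0.27 (SD, n = 6) and 7.85 ± 0.26 (SD, n = 6), and the venous-like level was the higher in 6 of 6 libraries. Both classes have venous character, and the blood vessels without it had little Ackr1. Capillary-like cells ranged from 0.467 to 2.25 CPM, arterial-like cells from 0 to 1.51 CPM and tip-like cells from 0 to 1.92 CPM. Ceiling lymphatic-like cells, at 2.56 to 4.76 CPM, were near the same low level.

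For neighbours in the order of classes, the log2 difference within libraries was tested by a 2-sided exact sign-flip permutation, whose smallest p with 6 libraries is 0.03125. The order was set by the same library means, so each step is positive on average by construction. None of the 44 neighbouring pairs over the 4 receptors had an adjusted p (Benjamini-Hochberg over the 44) below 0.05. With that smallest p, the threshold could be passed only if most of the 44 pairs stood at it. The 13 pairs with the smallest exact p of 0.03125, each with the same direction in 6 of 6 libraries, had an adjusted p of 0.106. For Ackr1 these were venous-like over HEV-like by 1.16, HEV-like over cycling blood endothelial-like by 3.15, and the cycling class over medullary or cortical lymphatic-like by 1.86 on the log2 scale. The last was medullary or cortical lymphatic-like over other blood endothelial cells by 0.72. Both of these classes lay below the Ackr1 level of free RNA in 6 of 6 libraries, and the cycling class in 3. That level is the share of Ackr1 within free RNA, not the amount of free RNA in cells. Estimated from immunoglobulin and T cell receptor UMIs, free RNA was 0.572% to 1.08% of medullary or cortical lymphatic-like UMIs. The estimate was 0.705% to 1.42% for other blood endothelial cells and 0.524% to 2.21% for the cycling class. The steps kept their direction with that estimate subtracted.

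A UMI of Ackr1 was seen in 49.7% to 67.1% of HEV-like cells (median over libraries 55.1%) at 9290.5 to 11315 median UMIs a cell. In B cell-like cells, which should lack it, the share was 0% to 0.290% at 2930 to 3616 median UMIs. With every cell thinned to 1000 UMIs, the share averaged 15.96% in HEV-like cells and 30.5% in venous-like cells, the same order as the CPM. Free RNA, measured in barcodes with under 100 UMIs, held Ackr1 at 10.8 to 53.0 CPM, below HEV-like and venous-like cells in each CD31 library. In the CD45 libraries, Pi16 adventitial-like fibroblasts had Ackr1 at 18.9, 56.0, 62.5, 42.7, 41.1 and 33.7 CPM, beside 0.514 to 4.97 CPM in free RNA.

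**Figure D2:**
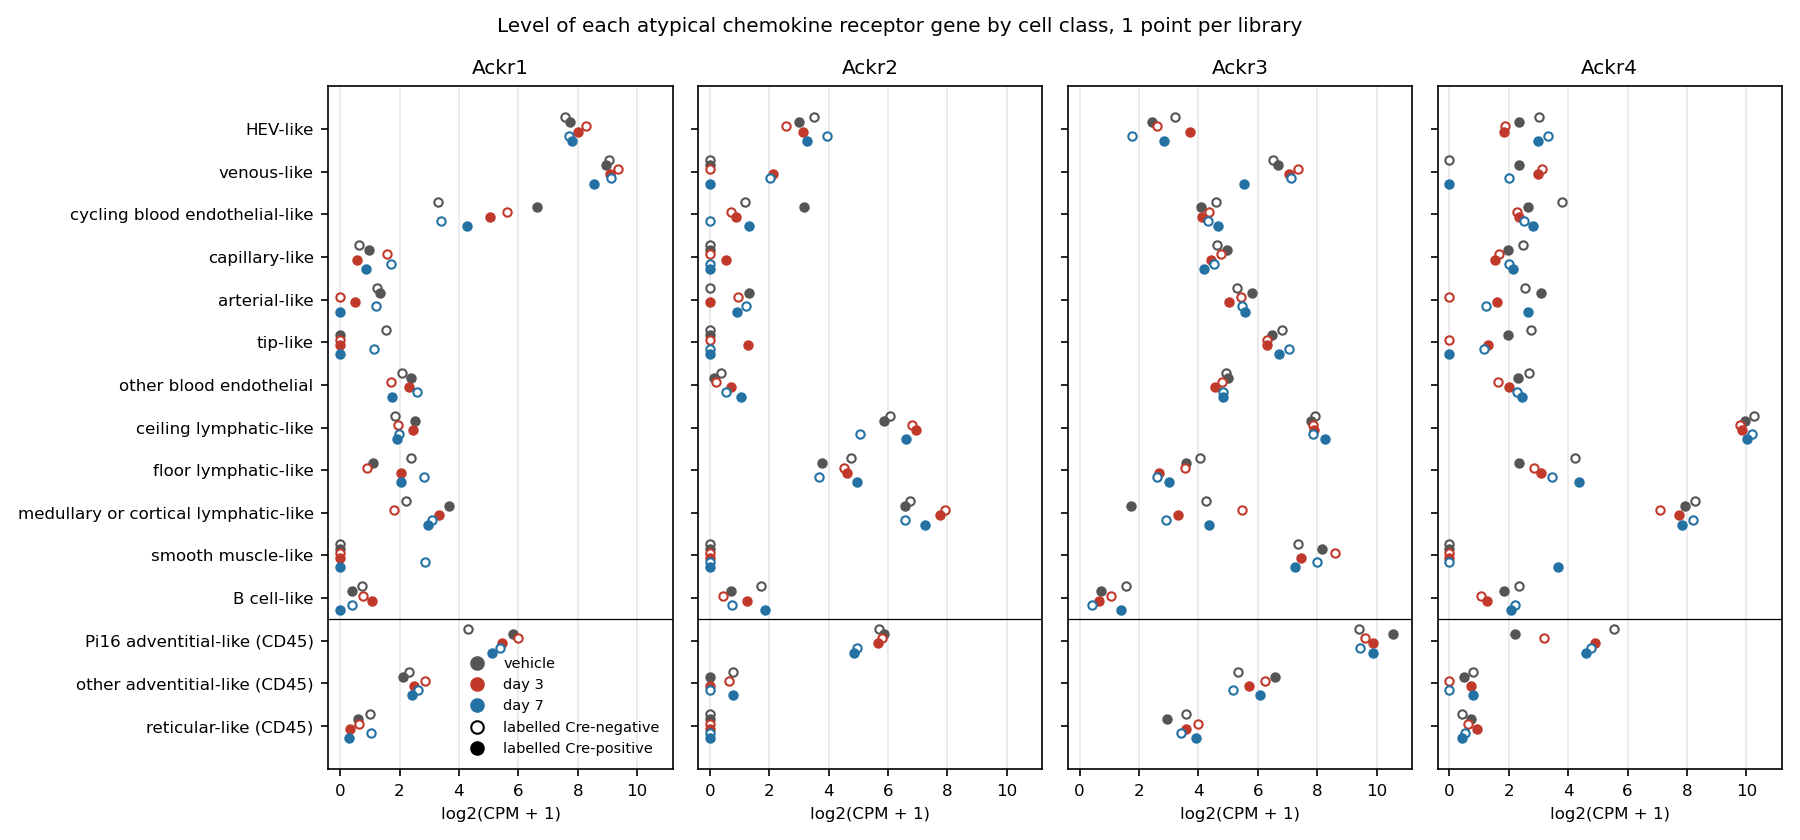
Level of each receptor as log2(CPM + 1) by cell class, with 1 point for each library (open for Cre-negative, filled for Cre-positive, grey for vehicle, red for day 3, blue for day 7). The CD45 fibroblast classes stand below the line. Ackr1 is highest in venous-like and HEV-like cells, Ackr2 in the medullary or cortical lymphatic-like class, Ackr4 in ceiling lymphatic-like cells, and Ackr3 in Pi16 adventitial-like fibroblasts.

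After oxazolone, both day 3 libraries had more Ackr1 in HEV-like cells (312 and 258 CPM) than the other 4 libraries, which ranged from 188 to 224 CPM. The exact Poisson 95% interval was 296 to 328 CPM for the day 3 Cre-negative library and 243 to 273 CPM for the Cre-positive one. These intervals cover counting error only and leave out the spread between libraries, which the fit uses. The fitted day 3 minus vehicle difference was 0.50 (SE 0.16) in log2 units, with an adjusted p of 0.114. This came from edgeR's quasi-likelihood test on UMIs summed by class and library, with label and treatment as terms and Benjamini-Hochberg adjustment over all genes of the class. The threshold was 0.05, and 1.59% of the 11411 genes tested in that class and comparison were called. Over 13 alternatives it ranged from 0.10 to 0.68. It was 0.68 with an edgeR adjusted p of 0.0393 without the vehicle Cre-positive library, and 0.51 with 0.0374 without a filter on low genes. It was 0.32 with 0.601 without the day 3 Cre-negative library, 0.33 with 0.221 without the vehicle Cre-negative one, and 0.10 with 0.794 without the 4 sub-clusters of more venous markers. At day 7 the difference from vehicle was 0.14, with an edgeR adjusted p of 0.962 and 0% of genes called.

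The HEV-like cells of day 3 were largely of other sub-clusters than those of vehicle. A sub-cluster led by Serpinb1a and 2200002D01Rik and a sub-cluster led by Selp and Ubd together held 57.7% of the 869 day 3 cells in the 9 sub-clusters, against 9.19% of 631 in vehicle and 11.3% of 934 at day 7. Sub-clusters were drawn from HEV-like, venous-like and some unnamed cells together, so these totals differ slightly from the class. Unnamed sub-clusters led by Selp and Glycam1 (120 cells) and by Serpina1e and Glycam1 (47 cells) are not among the 9. In the first, Ackr1 was at 131, 386, 712, 398, 187 and 108 CPM, from 27, 4, 2, 74, 9 and 4 cells. In the second it was at 296, 299, 393, 460, 156 and 266 CPM, from 4 to 11 cells a library. Within sub-clusters, both day 3 libraries lay above both vehicle libraries in 6 of 9. Of these, the one led by Glycam1 and Ccl21a rested on 10 and 11 day 3 cells and the one led by Ccl21a and Glycam1 on 5 and 6. The one led by Ccl21a and Ubd rested on 6 and 8 vehicle cells. In the Selp and Ubd sub-cluster Ackr1 was at 267, 256, 439, 412, 222 and 693 CPM, from 9, 12, 125, 111, 6 and 13 cells. In the Serpinb1a sub-cluster it was at 56.4, 51.7, 150, 123, 61.8 and 116 CPM, so day 3 lay above vehicle there too, at a lower level. The vehicle values of the Serpinb1a sub-cluster rested on 10 and 7 UMIs. The sub-cluster led by Fut7 and Glycam1 had the opposite order, with 143 and 153 CPM in vehicle against 131 and 106 CPM at day 3.

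The 4 sub-clusters led by more venous markers (Selp, Sele, Lrg1, Vwf) than HEV markers were those of Ccl21a and Glycam1, Dclk1 and Nxph1, Selp and Ubd, and Nxph1 and Mctp1. Without them, Ackr1 in the remaining HEV-like cells was 190.2, 193, 239, 186, 192 and 205 CPM, and the day 3 libraries no longer stood together above the rest. Heat-shock genes moved with day 3 in the whole class, summing to 2639 and 1294 CPM against 901 and 932 in vehicle. Immediate-early genes were at 3087 and 3115 CPM at day 3 against 6734 and 5821 CPM in vehicle. The part of heat-shock or immediate-early genes in the Ackr1 difference was not tested.

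**Figure D3:**
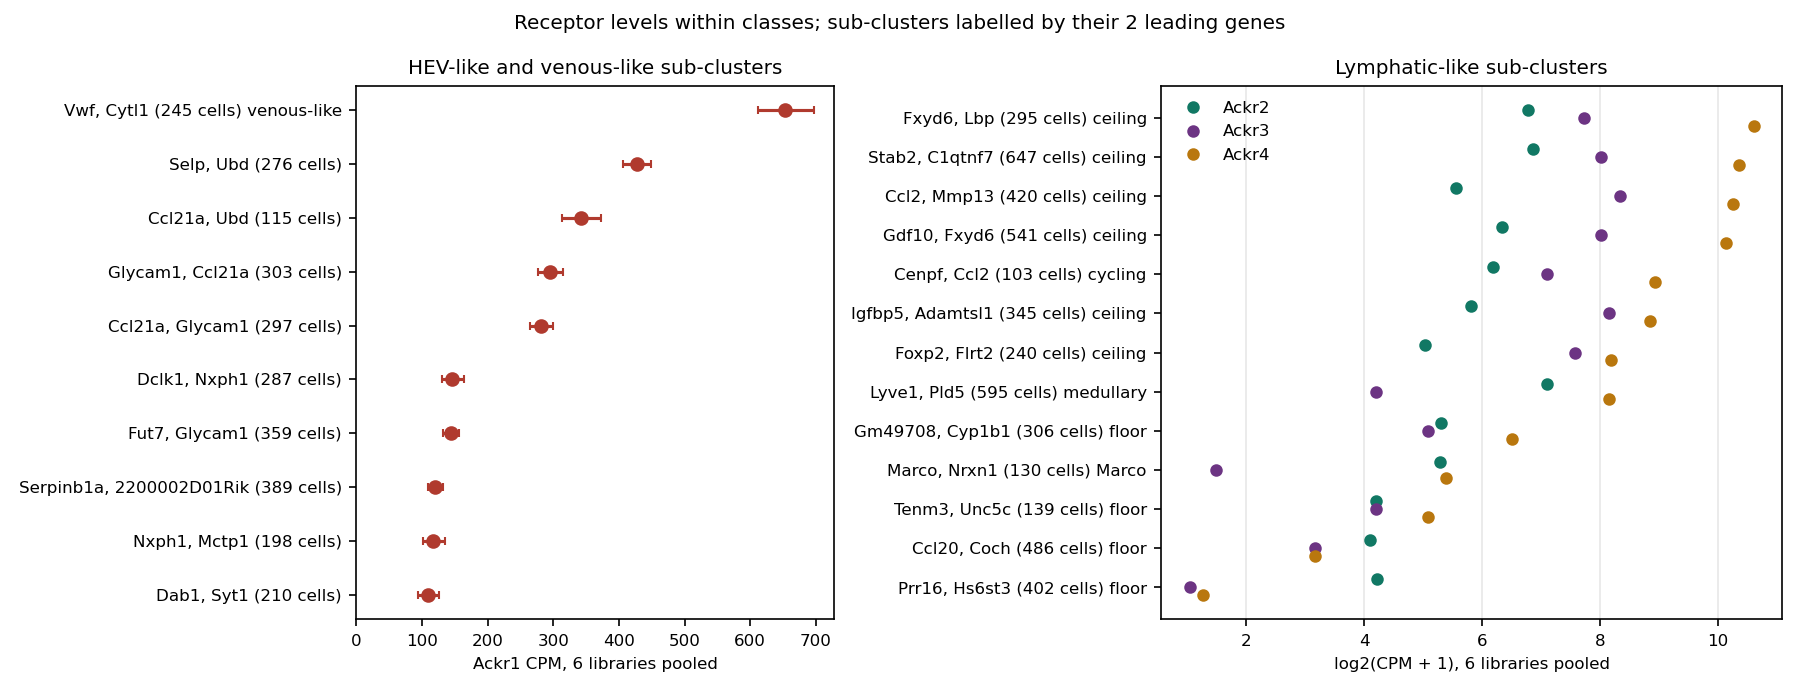
Left, Ackr1 in CPM with exact 95% Poisson intervals in HEV-like and venous-like sub-clusters, each named by its leading genes and pooled over 6 CD31 libraries. Right, log2(CPM + 1) of Ackr2, Ackr3 and Ackr4 in lymphatic sub-clusters. Unnamed sub-clusters are not shown. Ackr1 spans 109 to 427 CPM among HEV-like sub-clusters, and Ackr4 spans 1.40 to 1567 CPM among lymphatic ones.

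Summed over all blood endothelial-like cells, Ackr1 was at 33.0, 46.4, 92.5, 57.0, 80.6 and 44.6 CPM. HEV-like cells made up 7.48%, 8.37%, 10.9%, 9.14%, 16.5% and 9.24% of those cells. In such a sum, fewer cells of a type and less RNA per cell cannot be told apart. The day 3 minus vehicle difference was 0.90 (SE 0.34), with an edgeR adjusted p of 0.186, and 0% of 14894 genes were called. It had an adjusted p of 0.0187 without the day 7 Cre-negative library (log2 difference 0.95) and of 0.0234 without the day 7 Cre-positive library (0.95), and it was 1.62 with an adjusted p of 0.150 without the vehicle Cre-positive one. Without the vehicle Cre-negative library it was 0.30 with an edgeR adjusted p of 0.253. Cycling blood endothelial-like cells had Ackr1 at 8.90, 98.5, 47.6, 31.8, 9.44 and 18.2 CPM, the vehicle values resting on 7 and 37 UMIs. The summed HEV markers in that class were 905, 5525, 3890, 1665, 11853 and 1933 CPM, and their part in its Ackr1 level was not tested.

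Ackr2 encodes D6, a scavenger of inflammatory CC chemokines that is known from lymphatic endothelium. Its highest class was medullary or cortical lymphatic-like, at 105, 93.2, 240, 216, 94.8 and 150 CPM over 47 to 136 cells a library. Ceiling lymphatic-like cells had it at 66.6, 57.1, 111, 123, 32.6 and 95.6 CPM. Floor lymphatic-like cells, from the inner sinus wall, had it at 26.2, 12.7, 22.1, 23.3, 11.7 and 29.9 CPM. The order of these 3 lymphatic classes was the same in each of the 6 libraries, with log2 steps of 0.90 and 1.84 (exact permutation p 0.03125, adjusted p 0.106). Floor lymphatic-like cells and HEV-like cells (4.90 to 14.2 CPM) were the next neighbours. Free RNA held Ackr2 at 7.60 to 20.7 CPM, above the HEV-like level in 4 of 6 libraries and below the floor level in 6 of 6. The log2 difference between floor and HEV-like cells, 1.15, had an exact permutation p of 0.0625 (adjusted p 0.162), higher in floor in 5 of 6 libraries.

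Among lymphatic cells outside those classes, a sub-cluster led by Marco, a scavenger receptor gene of medullary sinuses, had Ackr2 at 38.0 CPM over 130 cells pooled. By library it was 32.8, 5.28, 0, 80.9, 38.7 and 58.9 CPM, from 5 to 52 cells each. Cycling lymphatic-like cells had 72.2 CPM over 103 cells pooled, and 0 to 129 CPM by library. A UMI of Ackr2 was seen in 35.5% to 68.3% of medullary or cortical lymphatic-like cells and 13.9% to 43.8% of ceiling lymphatic-like cells, against 0.116% to 0.903% of B cell-like cells. Thinned to 1000 UMIs, the shares averaged 11.9%, 8.21% and 0.0436%. In the CD45 libraries Ackr2 was found in Pi16 adventitial-like fibroblasts at 50.4, 57.3, 54.4, 49.5, 29.9 and 27.9 CPM, lowest in the 2 day 7 libraries, which gave 8 and 24 UMIs. There day 7 minus vehicle was -0.95 (SE 0.31, edgeR adjusted p 1.000) and day 7 minus day 3 was -0.81 (SE 0.35, edgeR adjusted p 0.700). Ackr2 was not counted once in 46417223 UMIs of reticular-like fibroblasts, which allows up to 0.0646 CPM.

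At day 3, Ackr2 in the medullary or cortical lymphatic-like class (240 and 216 CPM) lay above the other 4 libraries (93.2 to 150 CPM). The fitted day 3 minus vehicle difference was 1.24 (SE 0.27), with an edgeR p of 0.000575 and an adjusted p of 0.148. In that comparison 0.0222% of 9019 genes were called. The edgeR adjusted p was 0.0027 without the vehicle Cre-negative library (log2 difference 1.41), 0.0107 without the day 3 Cre-positive one (1.48), 0.0293 without the day 7 Cre-positive one (1.22) and 0.318 without the vehicle Cre-positive one (0.98). Over 12 alternatives the difference ranged from 0.98 to 1.48 and the edgeR or DESeq2 adjusted p from 0.0027 to 0.351, so the direction was the same and the call depended on which libraries entered. Day 7 minus day 3 was -0.93 (SE 0.25, edgeR adjusted p 0.562). That adjusted p was 0.0221 without the vehicle Cre-negative library (-0.92) and 0.0121 without the vehicle Cre-positive one (-0.92), 0.0665% of genes being called with all 6. The difference was -0.59 with an edgeR adjusted p of 1.000 without the day 7 Cre-negative library, and -1.35 with 0.238 without the day 7 Cre-positive one.

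Ceiling lymphatic-like cells had the same order: 111 and 123 CPM at day 3 stood above 32.6 to 95.6 CPM in the other 4 libraries. The day 3 minus vehicle difference was 0.92 (SE 0.33, edgeR adjusted p 0.650), with 0.0351% of genes called. It was 1.52 with an edgeR adjusted p of 0.0382 without the vehicle Cre-negative library, and 0.45 with an adjusted p of 1.000 without the vehicle Cre-positive library. Day 7 minus day 3 was -1.03 (SE 0.33, edgeR adjusted p 0.470), with 0.0527% of genes called. Its adjusted p was 0.0306 without the day 7 Cre-positive library (-1.87), 0.0261 without the vehicle Cre-negative one (-1.10) and 0.0254 without the vehicle Cre-positive one (-1.10), and 0.0330 without a filter on low genes (-0.9996). Without the day 7 Cre-negative library the difference was -0.40 with an edgeR adjusted p of 1.000. Among ceiling sub-clusters, the one led by Stab2 and C1qtnf7 had Ackr2 at 111, 91.5, 155, 219, 63.8 and 122 CPM. The sub-cluster led by Fxyd6 and Lbp had 70.6, 8.14, 194, 190, 56.1 and 92.1 CPM. Both day 3 libraries stood above the other 4 in 3 of the 6 ceiling sub-clusters, these 2 and the one led by Gdf10 and Fxyd6. They did not in those led by Ccl2 and Mmp13, Igfbp5 and Adamtsl1, and Foxp2 and Flrt2. In the last, day 3 was at 15.7 and 10.4 CPM against 52.8 and 14.4 CPM in vehicle. In HEV-like cells day 7 minus day 3 had the other sign, 0.92 (SE 0.37, edgeR adjusted p 0.263). It was 0.92 with an edgeR adjusted p of 0.0370 without a filter on low genes, and 0.19 without the day 3 Cre-negative library. The levels were near that of Ackr2 within free RNA, which was estimated at 0.393% to 0.812% of HEV-like UMIs. Immediate-early genes in ceiling lymphatic-like cells summed to 1810 and 6069 CPM at day 3 and 2875 to 6849 CPM in the other libraries, and their part in the Ackr2 difference was not tested.

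**Figure D4:**
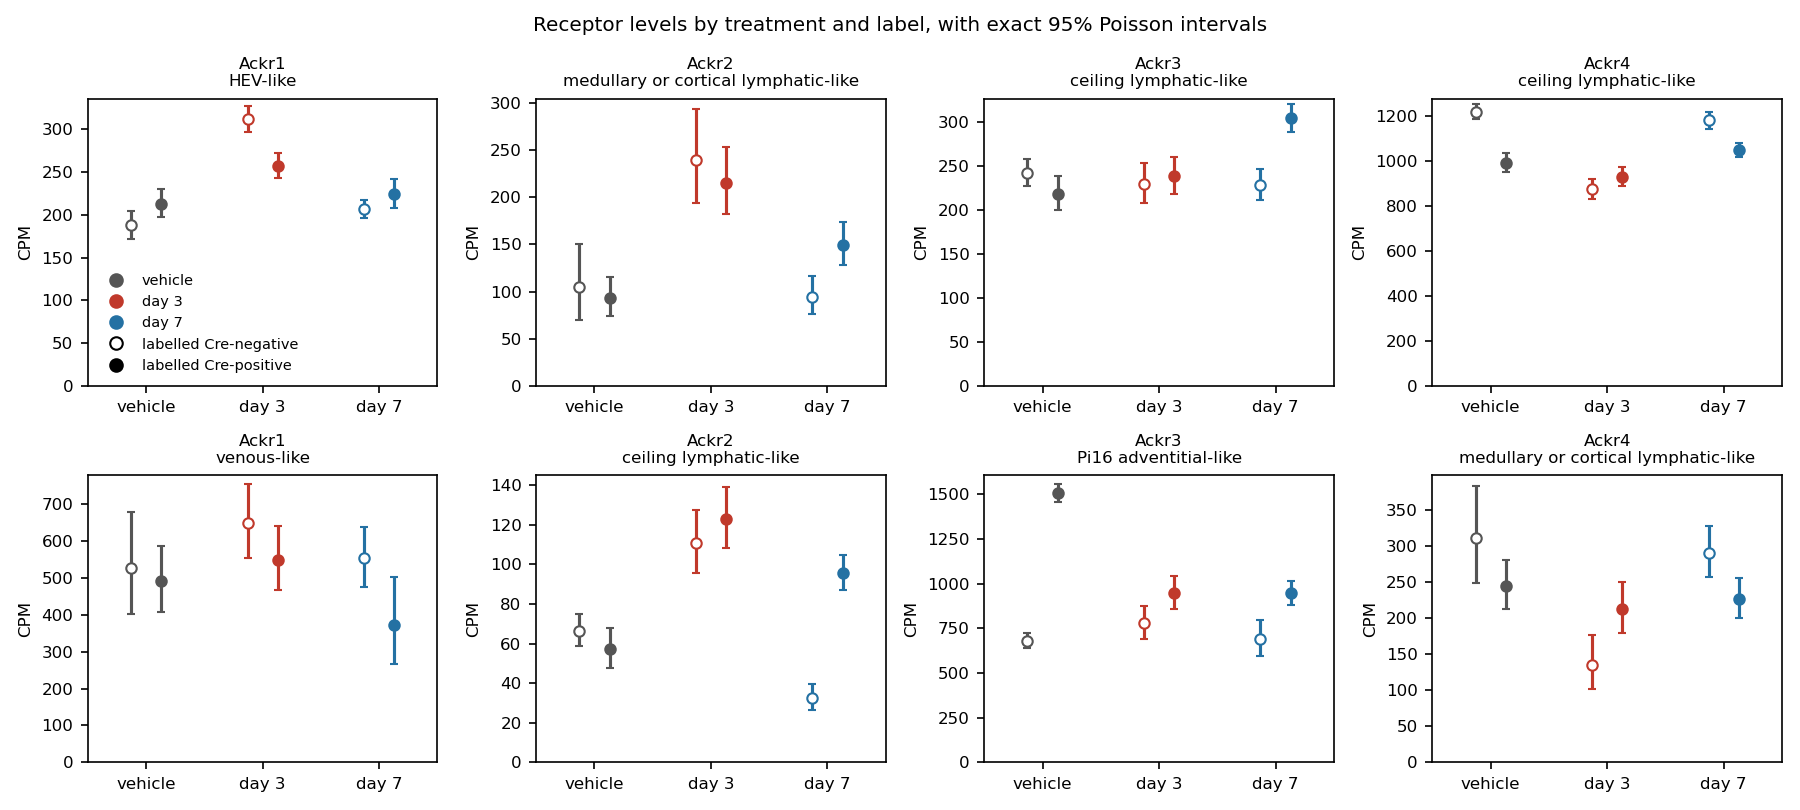
CPM of each receptor in 2 classes by treatment, with exact 95% Poisson intervals that cover counting error only (open for Cre-negative, filled for Cre-positive). Both day 3 points are the highest pair for Ackr1 in HEV-like cells (258 and 312 CPM) and for Ackr2 in medullary or cortical (216 and 240 CPM) and ceiling lymphatic-like cells (111 and 123 CPM).

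Ackr3 encodes CXCR7, which removes CXCL12 and CXCL11. It passed the filter on low counts in 14 of 14 fitted classes (2 of them sums of others), against 8 for Ackr1, 7 for Ackr2 and 8 for Ackr4, although several of its levels were no higher than in free RNA. In the CD31 libraries its level was 242, 219, 230, 239, 229 and 304 CPM in ceiling lymphatic-like cells. Smooth muscle-like cells had 161, 283, 383, 176, 251 and 151 CPM, from 10 to 37 cells a library. These neighbours differed by 0.13 on the log2 scale, within their spread (exact permutation p 0.656, adjusted p 0.902). The smooth muscle-like class of the CD45 libraries was lower, at 0 to 54.2 CPM (13 UMIs, 4 to 23 cells a library). Pericyte-like cells, the other mural class, had no Ackr3 UMI in 38 cells, which allows up to 12.8 CPM.

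Among blood vessels Ackr3 was at 89.2, 101, 164, 133, 137 and 45.2 CPM in venous-like cells. Tip-like cells, the sprouting front of growing vessels, had 113, 87.4, 77.9, 77.7, 132 and 104 CPM. The pair did not differ beyond its spread (log2 difference 0.10, exact permutation p 0.844). Below them stood arterial-like cells at 31.8 to 54.3 CPM, other blood endothelial cells at 22.5 to 31.1 CPM and capillary-like cells at 17.4 to 30.4 CPM. Each step in that series (1.17, 0.61 and 0.24 on the log2 scale) had the same direction in 6 of 6 libraries, with an exact permutation p of 0.03125 and an adjusted p of 0.106. HEV-like cells were low, at 2.37 to 12.1 CPM, although venous-like cells beside them were not. Free RNA held Ackr3 at 21.2 to 63.5 CPM in the CD31 libraries, so the HEV-like level lay below that of free RNA in each of them. The capillary-like level lay below it in 4 of 6 libraries, other blood endothelial cells in 2 and arterial-like cells in 1. Free RNA made up an estimated 1.16% to 2.84% of capillary-like UMIs. The estimates were 0.705% to 1.42% for other blood endothelial cells and 0.847% to 1.40% for arterial-like cells. Each step in that series kept its direction with the estimate subtracted.

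In the CD45 libraries, Pi16 adventitial-like fibroblasts had Ackr3 at 680, 1505, 777, 947, 690 and 947 CPM, from 41 to 210 cells. Other adventitial-like fibroblasts had 39.1, 94.5, 75.0, 51.6, 35.1 and 66.6 CPM, and reticular-like fibroblasts, which make the CXCL12-rich network of the node, had 6.64 to 15.0 CPM. An Ackr3 UMI was seen in 82.9% to 99.0% of Pi16 adventitial-like cells at 5487 to 10611 median UMIs, against 0.106% to 0.514% of B cell-like cells. Thinned to 1000 UMIs the share averaged 54.1%. The Cre-positive library was the higher at each treatment. The fitted label difference was 0.63 (SE 0.20) with an edgeR p of 0.0097 and an adjusted p of 0.290, where 0.0921% of 7604 genes were called. Without the vehicle Cre-positive library it was 0.36 with an adjusted p of 0.793, without the vehicle Cre-negative one 0.36 with 0.792, and without a filter on low genes it was 0.67 with an adjusted p of 0.0359. Cdh5, the driver's gene, marks endothelium, and Cre activity in fibroblasts was not tested.

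No Ackr3 difference between treatments was called. The widest with an unadjusted p below 0.05 was in floor lymphatic-like cells, where day 7 minus vehicle was -1.20 (SE 0.47, edgeR adjusted p 1.000). Its levels were 15.6, 11.002, 10.6, 5.30, 5.12 and 7.01 CPM, below free RNA in each library. In ceiling lymphatic-like cells day 3 minus vehicle was 0.06 (SE 0.27, edgeR adjusted p 0.999), and in tip-like cells day 7 minus day 3 was 0.48 (SE 0.21, edgeR adjusted p 0.311, 0.353% of genes called). Over all blood endothelial-like cells, day 3 minus vehicle was -0.30 (SE 0.09, edgeR adjusted p 0.129). The values behind it were 30.4 and 30.02 CPM in vehicle and 24.1 and 22.9 CPM at day 3. In reticular-like fibroblasts the day 3 difference was 0.72 (SE 0.32, edgeR adjusted p 0.222), with 0.877% of genes called, and the libraries overlapped between treatments.

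Ackr4 encodes CCRL1, which takes up CCL19, CCL21 and CCL25 and is known from the ceiling of the subcapsular sinus. Ceiling lymphatic-like cells had Ackr4 at 1219, 992, 875, 930, 1180 and 1048 CPM. Medullary or cortical lymphatic-like cells had 311, 245, 135, 213, 291 and 226 CPM. Floor lymphatic-like cells, on the opposite wall of the sinus, had 17.7, 4.05, 6.17, 7.42, 9.93 and 19.7 CPM, below the 44.5 to 172 CPM of free RNA in each library. Ceiling exceeded medullary or cortical by 2.17, and the latter exceeded floor by 4.46 on the log2 scale, in 6 of 6 libraries (exact permutation p 0.03125, adjusted p 0.106).

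The ceiling class was itself uneven. Its sub-clusters led by Fxyd6 and Lbp, Stab2 and C1qtnf7, Ccl2 and Mmp13, and Gdf10 and Fxyd6 had pooled Ackr4 levels of 1567, 1321, 1233 and 1131 CPM. Those led by Igfbp5 and Adamtsl1 and by Foxp2 and Flrt2 had 461 and 291 CPM, near the 284 CPM of the medullary or cortical sub-cluster led by Lyve1 and Pld5. At the floor end, the sub-clusters led by Ccl20 and Coch and by Prr16 and Hs6st3 had 7.96 and 1.40 CPM. The floor sub-cluster led by Gm49708 and Cyp1b1 (306 cells) had 120, 85.0, 86.9, 64.5, 31.7 and 170 CPM by library. The one led by Tenm3 and Unc5c had 0 to 127 CPM, from 1 to 38 cells a library. The Marco-led sub-cluster had 40.8 CPM pooled and 0 to 77.5 CPM by library. Cycling lymphatic-like cells had 491 CPM over 103 cells pooled, and 377 to 577 CPM by library.

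An Ackr4 UMI was present in 68.7% to 82.0% of ceiling lymphatic-like cells (median 81.0%) and in 18.2% to 42.6% of medullary or cortical ones, against 0.365% to 1.63% of B cell-like cells. Thinned to 1000 UMIs the shares averaged 52.5%, 17.3% and 0.300%. Ackr3 and Ackr4 were seen together in 44.9% to 58.1% of ceiling lymphatic-like cells, Ackr2 and Ackr4 in 12.4% to 38.5%, and Ackr2 and Ackr3 in 9.41% to 32.8%. Each pair was thus counted together in some of the sinus ceiling cells.

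In ceiling lymphatic-like cells the day 3 minus vehicle difference of Ackr4 was -0.24 (SE 0.31, edgeR adjusted p 0.999), and in medullary or cortical lymphatic-like cells it was -0.62 (SE 0.28, edgeR adjusted p 0.520). Both were opposite in sign to Ackr2 in the same cells, and that difference between receptors was not tested. Summed over all lymphatic-like cells Ackr4 was at 843, 477, 484, 532, 524 and 671 CPM. Ceiling cells made up 70.2%, 46.0%, 54.2%, 56.4%, 44.6% and 64.8% of those cells. The 2 libraries with the largest ceiling share had the highest summed level, but among the other 4 the order differed: the lowest share, 44.6%, stood beside 524 CPM and 54.2% beside 484 CPM.

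The lowest adjusted p of any receptor was for Ackr4 in HEV-like cells, day 7 minus day 3, at 1.64 (SE 0.35, edgeR adjusted p 0.0805), where 0.228% of genes were called. It was 1.67 with an adjusted p of 0.0081 without the vehicle Cre-negative library, 1.67 with 0.0076 without the vehicle Cre-positive one, and 1.64 with 0.0007 without a filter on low genes. It was 2.05 with 0.0331 without the 4 sub-clusters of more venous markers, and 1.32 with 0.729 without the day 3 Cre-negative library. The levels were small, at 7.18, 4.12, 2.65, 2.55, 8.93 and 6.93 CPM. Ackr4 in free RNA of the same libraries was at 172, 69.3, 55.2, 44.5, 125 and 164 CPM, with the day 3 libraries lowest there as well. Free RNA was estimated at 0.393% to 0.812% of HEV-like UMIs. B cell-like cells had 4.08, 2.56, 1.08, 1.39, 3.66 and 3.25 CPM, again lowest at day 3. With an estimate of free RNA subtracted from the counts, the HEV-like difference was 1.76 with an edgeR adjusted p of 0.0743.

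**Figure D5:**
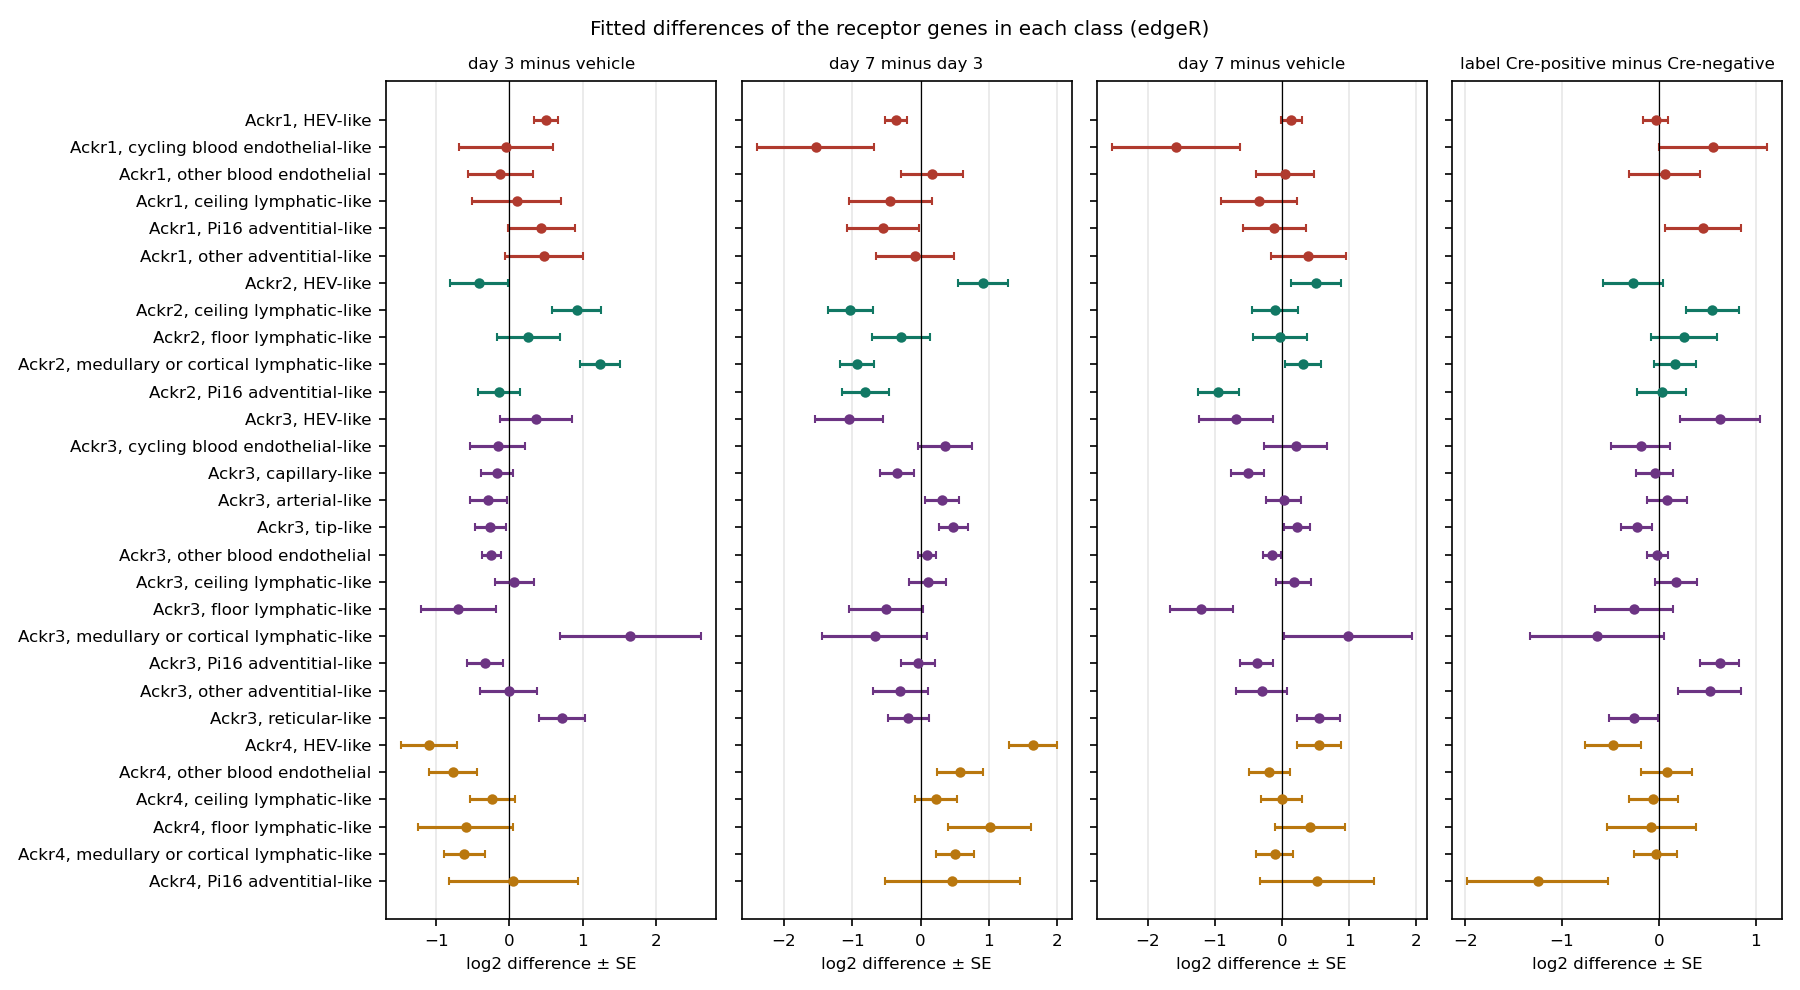
Fitted log2 differences (edgeR) of each receptor in the classes where it passed the filter, for the 3 treatment contrasts and the label contrast. Bars are standard errors derived from the F statistic of the test. None of the differences passed the adjusted threshold of 0.05; the day 3 minus vehicle values of Ackr2 in medullary or cortical (1.24) and ceiling lymphatic-like cells (0.92) and of Ackr1 in HEV-like cells (0.50) lie to the right of 0.

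Over the 14 fitted classes and 3 treatment contrasts, 0 of 111 receptor tests were called by edgeR, against a background of 0.348% of 461946 tests over all genes (0.512% for day 3 minus vehicle, 0.53% for day 7 minus day 3 and 0.0026% for day 7 minus vehicle). At an unadjusted p below 0.05 there were 22 receptor tests (19.8%), compared with 10.1% over all genes. Of these, 10 were for day 3 minus vehicle, 9 for day 7 minus day 3 and 3 for day 7 minus vehicle. DESeq2 also called 0, of 94 tests. For the Cre label, 0 of 35 receptor tests were called against 0.0256% of 148301, with 1 at an unadjusted p below 0.05, and DESeq2 called 0 of 44. Tests of 1 receptor in overlapping classes share cells, and the day 3 and day 7 contrasts share vehicle libraries.

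The label was also read within each treatment, as the ratio of 1 Cre-positive to 1 Cre-negative library, with intervals that cover counting error only and no test. In HEV-like cells the log2 ratio of Ackr1 was 0.18 (0.02 to 0.35) in vehicle, -0.28 (-0.39 to -0.17) at day 3 and 0.12 (-0.01 to 0.26) at day 7. The widest Ackr2 ratio in ceiling lymphatic-like cells was 1.55 (1.23 to 1.88) at day 7, against -0.22 (-0.54 to 0.09) in vehicle and 0.15 (-0.12 to 0.43) at day 3. For Ackr4 in the same cells the ratios were -0.30 (-0.37 to -0.23), 0.09 (-0.01 to 0.19) and -0.17 (-0.23 to -0.11). None of these receptors had ratios of 1 sign with intervals clear of 0 at all 3 treatments in those classes. Ackr3 in Pi16 adventitial-like fibroblasts did, at 1.15 (1.04 to 1.25), 0.28 (0.06 to 0.51) and 0.46 (0.22 to 0.69).

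The chemokines these receptors bind were read in the same fits, where 0.348% of tests between treatments were called over all genes. Of the Ackr1 ligands (9 genes), 2 of 213 tests were called higher and 2 lower (1.88%). Of the Ackr2 ligands (10 genes), which share 5 genes with them, 2 of 135 were higher and 1 lower (2.22%). These were calls of Ccl5 and Ccl8 that the Ackr1 list already holds, and no gene found only in the Ackr2 list was called. Of the Ackr3 ligands (2 genes, of which Cxcl12 was in the feature list), 1 of 36 was higher and 1 lower (5.56%), and of the Ackr4 ligands (3 genes) 0 of 84 were higher and 1 lower (1.19%). Each share rests on 1 to 4 calls. Cxcl12, the lymphocyte and stem cell attractant, was lower in HEV-like cells at day 3 than in vehicle (log2 difference -1.17, SE 0.18, edgeR adjusted p 0.0361). Its levels there were 140, 138, 50.0, 77.0, 122 and 191 CPM, and day 7 was higher than day 3 by 1.33 (SE 0.18, edgeR adjusted p 0.0416). Cxcl1, a neutrophil attractant, was lower in arterial-like cells at day 3 than in vehicle (log2 difference -1.34, SE 0.24, edgeR adjusted p 0.0031), at 21.9 and 61.2 CPM against 83.8 and 139 CPM in vehicle, and 3.83% of genes were called there.

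Ccl5, an attractant of T cells and monocytes, was higher at day 3 than in vehicle in other blood endothelial cells by 3.04 (SE 0.27, edgeR adjusted p 0.020), at 35.3 and 34.6 CPM against 3.01 and 6.02 CPM, with 0.233% of genes called. It was also called in cycling blood endothelial-like cells (edgeR adjusted p 0.0395), where it was listed at 0 in both vehicle libraries and at 28.9 and 87.0 CPM at day 3 (0.0936% of genes called). At day 7 it was there at 0 and 60.6 CPM. Ccl21a, which guides cells with CCR7, was lower in tip-like cells at day 7 than at day 3 (log2 difference -3.23, SE 0.52, edgeR adjusted p 0.0385). It was there at 123 and 43.2 CPM at day 3 and at 18.3 and 0 CPM at day 7. In HEV-like cells it averaged 5408 CPM. Its counts are uncertain, since near-identical copies of the gene can share reads. Ccl8 was called in arterial-like cells between day 7 and day 3 (edgeR adjusted p 0.0032), with 0 in both day 7 libraries and 17.3 and 15.3 CPM at day 3 (3.37% of genes called). In vehicle Ccl8 was there at 14.5 and 1.51 CPM. Of the Ackr1 list's 5 genes tested in HEV-like cells at day 3, the median was -0.83, beside 0.00 over all genes.

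Among partners of the receptors, 0 of 33 tests of the signalling receptors for the same ligands (10 genes) and 0 of 210 tests of arrestins and receptor kinases (6 genes) were called between treatments, beside 0.348% over all genes. Ccrl2, a chemerin-binding relative, was the 1 call of 63 tests of other chemokine-binding receptors (1.59%). It was lower in arterial-like cells at day 3 than in vehicle (log2 difference -0.88, SE 0.24, edgeR adjusted p 0.0386), at 29.2 and 33.5 CPM against 65.1 and 55.8 CPM, in the comparison where 3.83% of genes were called. No gene of these lists was called for the Cre label.

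Genes whose level followed each receptor most closely were found over 72 sums (12 CD31 classes in 6 libraries) by Pearson r of log2(CPM + 1), among 7323 genes. The points share libraries and depth, and r is a description. For Ackr1 they were Selp (r 0.91), the P-selectin gene of venular endothelium, Oit1 (0.84) and Ccl21a (0.83). For Ackr2 they were Stab2 (0.91), a sinusoidal scavenger receptor gene, Fibin (0.90) and Tgfa (0.90). For Ackr3 they were Rock2 (0.86), Tgfb1i1 (0.79) and Cald1 (0.79), the last a marker of smooth muscle. For Ackr4 they were Gdf10 (0.93), Klrb1f (0.92) and Fibin (0.90).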

How the data were processed

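The deposited files hold raw UMI counts per gene and cell barcode, made with Cell Ranger 7.0.1 on mm10 per the submitters' processing notes; the authors' filters on cells were not given in the sources used here. Cells were barcodes that reached 1000 UMIs and 500 genes, with mitochondrial UMIs no higher than 10%. The barcodes of highest Scrublet score, 0.8% per 1000 barcodes, were removed as predicted doublets. In 3 libraries the caller had not worked: its own threshold called 0 (vehicle Cre-negative CD31), 1 (day 3 Cre-positive CD31) and 3 (day 3 Cre-negative CD45). In the CD31 pair the removed barcodes had fewer UMIs than the cells kept (medians 3702 against 4329 and 2157 against 3434), so doublets may remain there. Keeping all of them was an alternative. Cells of each fraction were clustered with scanpy 1.11.5 (2000 variable genes, 30 components, 20 neighbours, Leiden resolution 1 with leidenalg 0.10.2). The receptors and the chemokine lists were left out of the variable genes. A class was named, cluster by cluster, only where at least 3 of its markers were detected, and clusters whose leading genes went against a name stayed unnamed. Sub-clusters came from clustering related clusters together again. They are called by their leading genes and listed under the class of most of their cells, so their sizes differ from those of classes. Among fitted classes, 4 HEV-like, 1 ceiling lymphatic-like and 1 capillary-like sub-clusters had more markers of another class among their 10 leading genes. The capillary-like one held 35.0% of that class's cells and 28.6% of its Ackr3 UMIs. An alternative chosen after seeing the data left such sub-clusters out.

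UMIs were summed by class and library. With 20 or more cells in each of 6 libraries, a class was fitted with edgeR 4.0.16 (quasi-likelihood test, TMM, filterByExpr, terms label and treatment, 2 residual degrees of freedom), with Benjamini-Hochberg adjustment at 0.05 over all genes of the class. Since each combination was 1 library, the spread is that left by the additive model. The SE beside an edgeR difference was derived, as its absolute value divided by the square root of the test's F statistic. Labels do not say that libraries came from separate animals, so p-values measure the spread between these libraries. DESeq2 1.42.0, a pseudocount of 5, other filters, a 2000 UMI minimum and leaving out each library were alternatives, and the fit was tested on simulated data. Leaving out a library leaves a treatment with 1 library and fewer residual degrees of freedom. The p-values of those fits are therefore not on equal terms with those from 6 libraries. In the venous-like class, under 20 cells in 1 library, an added fit used a minimum of 10. Intervals are exact (Poisson for levels, Clopper-Pearson for shares) at 95% and cover counting error only; a count of 0 allows up to 3 counts.

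The 4 receptors, the lists of ligands, receptors and arrestins and the cell markers were chosen with earlier results of these data known. Beside the receptors, the text names at most 4 called genes of each list, by mean level, and the 3 genes most like each receptor among those averaging at least 20 CPM. Of the feature identifiers, 99.6% were found in GENCODE M21.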

Additional observations from a re-analysis of the deposited data

Results flagged for a closer look

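In several classes the Cre-positive to Cre-negative ratio of a receptor had opposite signs in different treatments, with counting intervals clear of 0. Each ratio compares 1 library with 1 library, on the log2 scale, and the difference between treatments was not tested. Ackr1 had ratios of 0.18 in vehicle and -0.28 at day 3 in HEV-like cells. In all blood endothelial-like cells it had 0.49 in vehicle, -0.70 at day 3 and -0.86 at day 7, beside HEV-like shares of those cells of 8.37% and 7.48%, 9.14% and 10.9%, and 9.24% and 16.5% (Cre-positive, then Cre-negative). In cycling blood endothelial-like cells it had 3.47 in vehicle and -0.58 at day 3.

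Ackr2 had -1.04 in vehicle and 1.35 at day 7 in floor lymphatic-like cells. Over all lymphatic-like cells it had -0.39 in vehicle, 0.27 at day 3 and 1.49 at day 7. Ackr3 had -0.76 in vehicle and 0.94 at day 7 over all lymphatic-like cells, and -2.27 at day 3 and 1.59 at day 7 in the medullary or cortical class. In the CD45 libraries Ackr3 had 1.27, -0.54 and 0.92 in other adventitial-like fibroblasts, and -0.71, -0.45 and 0.53 in reticular-like fibroblasts (vehicle, day 3, day 7).

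Ackr4 had -2.13 in vehicle and 0.99 at day 7 in floor lymphatic-like cells, and 0.65 at day 3 and -0.36 at day 7 in the medullary or cortical class. Over all lymphatic-like cells it had -0.82, 0.14 and 0.35 (vehicle, day 3, day 7), beside ceiling shares of 46.0% and 70.2%, 56.4% and 54.2%, and 64.8% and 44.6% (Cre-positive, then Cre-negative).

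A feature named mRFP, outside the genes analysed, was listed in 4 of the 6 CD31 libraries. It had 364 UMIs in the vehicle, 930 in the day 3 and 342 in the day 7 Cre-positive library, and 0 in the day 7 Cre-negative library.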

How the results depend on the processing

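No receptor test was called between treatments or labels with all libraries and the filter on low genes. Without that filter 9 treatment tests and 1 label test were called. Leaving out 1 library at a time gave 0 to 10 treatment calls (10 without vehicle Cre-negative CD31, 7 without vehicle Cre-positive CD31, 5 without day 7 Cre-positive CD31) and 0 to 1 label calls. A treatment left with 1 library was assumed to vary like the others, and the cause was not tested. Over all lymphatic-like cells, Ackr2 at day 3 minus vehicle was 1.71 (edgeR adjusted p 8.1e-06) without vehicle Cre-negative and 0.42 (adjusted p 0.875) without vehicle Cre-positive, against 0.99 (adjusted p 0.726) with both. Without sub-clusters led by more markers of another class, an alternative added after seeing the data, 1 treatment test was called (Ackr4 in HEV-like cells) and 0 label tests, and Ackr1 in HEV-like cells at day 7 minus day 3 turned from -0.36 to 0.0013 (edgeR adjusted p 1.000). Of the 23 receptor differences with an unadjusted p below 0.05, the other 22 kept their direction in every refit. The 13 class steps kept theirs in all 130, but they were picked for having the same direction in each library. Leaving out a library or raising the pseudocount therefore could not reverse them. DESeq2, the 2000 UMI minimum, doublets kept, free RNA subtracted and cells with no Ptprc UMI gave no receptor call, the pseudocount of 5 CPM gave none among class steps, and the venous-like fit, added after seeing the data, gave none (Ackr1 day 3 minus vehicle 0.29, edgeR adjusted p 0.745). Thinned to 2000 in place of 1000 UMIs, shares rose by construction: Ackr1 26.7% in HEV-like and 48.1% in venous-like cells, Ackr2 25.5% in medullary or cortical and 12.6% in ceiling lymphatic-like cells, Ackr3 33.7% in ceiling lymphatic-like and 74.3% in Pi16 adventitial-like cells, Ackr4 68.1% in ceiling lymphatic-like cells. Libraries could not be paired by replicate, because each group is 1 library and the labels carry no replicate numbers. The fit compared treatments within labels, and class steps were compared within libraries. Cells a library were 10 to 37 in smooth muscle-like, 18 to 64 in venous-like, 25 to 560 in cycling blood endothelial-like and 47 to 136 in medullary or cortical lymphatic-like.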

Other observations

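Outside vessels and fibroblasts, Ackr4 was counted in germinal centre B-like cells of the CD45 libraries at 13.6 CPM (exact 95% interval 10.9 to 16.7, 91 UMIs in 529 cells pooled). Other B cell-like cells had 0.873 CPM (0.648 to 1.15) and T cell-like cells 0.800 CPM. By library, in the order of the report, the germinal centre B-like level was 8.59, 7.52, 0, 0, 22.3 and 21.3 CPM, with 20 and 67 of the 91 UMIs in the vehicle Cre-negative and day 7 Cre-positive libraries, which held 211 and 245 of the cells. Free RNA in the CD45 libraries held Ackr4 at 0 to 2.61 CPM.

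Ackr3 was found in 86 epithelial-like cells of the CD45 libraries at 143 CPM (92 UMIs pooled). By library it was 176, 183, 125, 366, 0 and 83.7 CPM, from 18, 13, 49, 1, 3 and 2 cells, beside 8.21 to 69.9 CPM in free RNA. NK-like cells of the vehicle Cre-negative CD31 library held 26 Ackr4 UMIs (67.7 CPM in 65 cells), against 0 or 1 UMI in each of the other 5 CD31 libraries. Free RNA of that library held Ackr4 at 172 CPM.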
